A study of Homo sapiens with 8 samples.

Results

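The genes described here are 10 that set the level of polyamines in a cell, of 19414 coding genes measured: the synthesis genes ODC1, AMD1, SRM and SMS, the breakdown genes SAT1, SMOX and PAOX, and the regulators OAZ1, OAZ2 and AZIN1. They were chosen by name for their place in the pathway, and all 10 were found. Newly made RNA was read by TT-seq, in which cells build 4-thiouridine (4-SU) into the RNA they make while it is present, in 8 libraries of U2OS, a human osteosarcoma line. There were 4 genotypes with 2 libraries each: WT, Zab, MYC O/E, and both together, written Zab + MYC O/E. Zab, written Zαβ in the series' title, is background shorthand for the Zα and Zβ domains of ADAR, an RNA-editing enzyme. MYC O/E is read here as overexpression of the transcription factor MYC. The labels used here do not state the Zab construct, a promoter, a clone, a labelling time or whether paired libraries came from separate cultures. The p-values therefore reflect no more than the variation seen between such libraries, possibly technical.

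Libraries held 1839960 to 4072059 reads over coding exons. Values below are CPM, reads of a gene relative to the total of its library after TMM scaling, given as mean ± SD (n = 2) unless every library is listed. Calls rest on limma's p-values, adjusted by Benjamini-Hochberg over the 11985 genes tested, with 0.05 as the threshold. Levels of different genes are compared only as CPM per kb of exon. The deposited values carry a further multiplier for each library. What it rests on is not stated in the labels or headers used here. Their sum per library stood at 0.741 times WT in Zab, 1.47 times in MYC O/E and 1.18 times in Zab + MYC O/E. The sign of several changes depends on which of these scales is used. In RNA from whole cultures, fewer cells making a transcript and less RNA per cell cannot be told apart.

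The genes that the labels name did not follow the labels in every genotype. MYC stood at 760 ± 17.5 CPM in WT, 981 ± 68.7 in Zab and 6570 ± 8.6 in MYC O/E, but at 757 ± 14.8 in Zab + MYC O/E, 0.997 times WT. ADAR stood at 33730 ± 32.8 CPM in WT and 32098 ± 67.4 in Zab + MYC O/E, and at 551 ± 33.4 in Zab and 453 ± 12.3 in MYC O/E, 61.2-fold and 74.5-fold below WT. In WT, ADAR held 3.51% of the reads and ranked 2 by CPM per kb. Whether libraries carry the right labels, and whether the WT libraries are of unmodified cells, was not tested, and every comparison with WT rests on this. Chi-squares per gene were taken over the 8810 to 10840 genes with enough reads in a pair of libraries. They were 2.78 to 2.88 between WT and Zab + MYC O/E libraries and 1.998 to 2.059 between replicate libraries. Libraries of the other genotype pairs differed by 28.2 to 46.1. Each genotype name below therefore means the libraries that carry that label. The mesenchymal gene VIM was high in every genotype (1810 to 3114 mean CPM), as were the bone matrix genes COL1A1 (190 to 311 CPM) and SPARC (332 to 560). The bone factor RUNX2 averaged 3.46 to 31.3 CPM, ALPL at most 2.26 and COL1A2 at most 0.60, and the osteoblast factor SP7 was at 0 in every library. Of 5 epithelial markers, KRT18 (612 to 1557 CPM) and KRT8 (266 to 890) were high, EPCAM, CDH1 and KRT19 averaged at most 4.28 CPM, and the 5 together summed to 1358 to 1393 CPM in the WT libraries, 2380 to 2513 in Zab, 865 to 901 in MYC O/E and 1257 to 1277 in Zab + MYC O/E. This sum was thus highest in Zab and lowest in MYC O/E, and its part in the values below was not tested. Blood markers summed to at most 1.06 CPM and endothelial markers to at most 2.12.

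Polyamines are small, positively charged molecules that bind nucleic acids and are needed for growth. As background, ODC1 turns ornithine into putrescine, AMD1 decarboxylates S-adenosylmethionine to supply aminopropyl groups, and SRM and SMS add these groups to make spermidine and then spermine. SAT1 acetylates spermidine and spermine for export or for oxidation by PAOX, and SMOX oxidises spermine back to spermidine. The antizymes OAZ1 and OAZ2 are made when polyamines are plentiful, bind the ODC1 protein and deliver it to the proteasome, and AZIN1, a relative of ODC1 without its activity, binds antizyme and so spares ODC1. ODC1 is a textbook target of MYC, which binds the E-box CACGTG.

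The E-boxes near the starts of ODC1 and SRM are shown because, of the polyamine genes searched, only these held CACGTG near a start. Their calls were not used to choose them, and AMD1, also called higher in MYC O/E, had no match. RefSeq windows (GRCh38.p14, 250 bases before to 50 after a start) matched 7 of the 10 genes, and CACGTG, which reads the same on both strands, was in the windows of 2 of them. Of all genes with windows, 8.77% held it (7.26% of windows). ODC1 has 2 starts in this table, 315 bases apart, and its 2 matches begin 29 bases before and 5 bases after the second start. The SRM match begins 199 bases before its start. Both stretches are given 5′ to 3′ on the minus strand, from chr2:10447990-10448071 and chr1:11060200-11060247, with CACGTG in capitals.
ODC1: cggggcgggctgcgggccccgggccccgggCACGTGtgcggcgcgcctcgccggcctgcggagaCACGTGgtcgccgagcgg
SRM: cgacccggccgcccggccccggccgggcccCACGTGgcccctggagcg
The variant CACGCG, searched on both strands, was found in 1 of the 7 genes, ODC1, where 2 overlapping matches begin 209 and 207 bases before the first start, and in 13.5% of all genes (11.4% of windows). These matches describe letters only, since no binding of MYC was measured here.

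Gene positions from here on are those of the deposited files, in hg19. ODC1 (NM_002539, chromosome 2, 10580094 to 10588453, minus strand) had the highest mean CPM per kb of the 10 genes in WT, Zab and MYC O/E. Its CPM was 791 and 825 in the WT libraries, 1172 and 1141 in Zab, 1352 and 1410 in MYC O/E, and 648 and 645 in Zab + MYC O/E. No library of one genotype overlapped another genotype: MYC O/E was highest, then Zab, then WT, and Zab + MYC O/E was lowest. ODC1 rose 1.71-fold in MYC O/E over WT (log2 change 0.77, SE 0.0419, adjusted p = 1.81e-14). It rose 1.43-fold in Zab over WT (0.52, adjusted p = 6.52e-11), whereas its deposited values gave -0.12 (adjusted p = 0.0279). In Zab + MYC O/E it fell 2.14-fold below MYC O/E (-1.09, adjusted p = 6.67e-18). It also fell below WT (-0.32, 95% interval -0.41 to -0.24, adjusted p = 3.57e-05), a call that the deposited values do not give (-0.04, adjusted p = 0.532) and that is lost when the WT pair and the Zab + MYC O/E pair are each averaged to 1 sample (adjusted p = 0.273). The deposited values themselves were 536 and 568 in WT, 507 and 508 in Zab, 1310 and 1351 in MYC O/E, and 538 and 532 in Zab + MYC O/E. On that scale MYC O/E was highest, at 2.41 times WT, and the Zab libraries were lowest.

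AMD1 (chromosome 6, 111195987 to 111216915, plus strand) stood at 68.4 and 55.1 CPM in the WT libraries, 43.2 and 44.1 in Zab, 96.9 and 106 in MYC O/E, and 62.6 and 59.0 in Zab + MYC O/E. The MYC O/E libraries were the highest, the Zab libraries the lowest, and WT overlapped Zab + MYC O/E. AMD1 rose 1.64-fold in MYC O/E over WT (log2 change 0.71, SE 0.143, adjusted p = 0.000185). It fell in Zab (-0.48, adjusted p = 0.00642), a call that was lost without WT replicate 1 (-0.34, adjusted p = 0.122). Zab + MYC O/E was below MYC O/E (-0.73, adjusted p = 0.00014) and above Zab (0.47, adjusted p = 0.00799), the second of these lost without Zab + MYC O/E replicate 1 (0.43, adjusted p = 0.0721), in DESeq2 and with averaged pairs. AMD1 and ODC1 were thus both called higher in MYC O/E, and were called in opposite directions in Zab over WT on the CPM scale.

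SRM, spermidine synthase (chromosome 1, 11114646 to 11120075, minus strand), stood at 229 and 248 CPM in the WT libraries, 355 and 362 in Zab, 328 and 327 in MYC O/E, and 254 and 253 in Zab + MYC O/E. The Zab and MYC O/E libraries lay above all libraries of the other 2 genotypes. SRM rose 1.37-fold in MYC O/E (log2 change 0.46, SE 0.0684, adjusted p = 3.69e-06) and 1.5-fold in Zab (0.59, adjusted p = 5.73e-08), the latter only after scaling, since the deposited values gave -0.05 (adjusted p = 0.584). Zab + MYC O/E was lower than MYC O/E (-0.37, adjusted p = 7.22e-05).

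SMS, spermine synthase (X chromosome, 21958827 to 22012955, plus strand), stood at 197 and 193 CPM in the WT libraries, 148 and 134 in Zab, 131 and 132 in MYC O/E, and 178 and 159 in Zab + MYC O/E. Opposite to SRM, the Zab and MYC O/E libraries lay below all libraries of the other 2 genotypes, and WT was highest. As deposited values, Zab + MYC O/E (147.5 and 131.6, mean 139.5) overlapped WT (133.3 and 133.0, mean 133.2), and only Zab (62.0) was far below. Zab + MYC O/E over WT was not called there (0.06, adjusted p = 0.653). SMS fell in MYC O/E over WT (log2 change -0.56, SE 0.0924, adjusted p = 1.4e-05) and in Zab over WT (-0.47, adjusted p = 0.000148). The deposited values gave -0.07 in MYC O/E (adjusted p = 0.542), where the fall was not called. It was higher in Zab + MYC O/E than in MYC O/E (0.35, adjusted p = 0.00274), a call lost without Zab + MYC O/E replicate 1 (0.27, adjusted p = 0.0789) and on the deposited scale (0.13, adjusted p = 0.245). As a ratio of CPM per kb, SRM over SMS was 1.65 ± 0.116 in WT, 3.44 ± 0.282 in Zab, 3.36 ± 0.0267 in MYC O/E and 2.04 ± 0.15 in Zab + MYC O/E. This ratio needs no scaling between libraries, and its libraries with either label alone lay above all the rest.

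**Figure D1:**
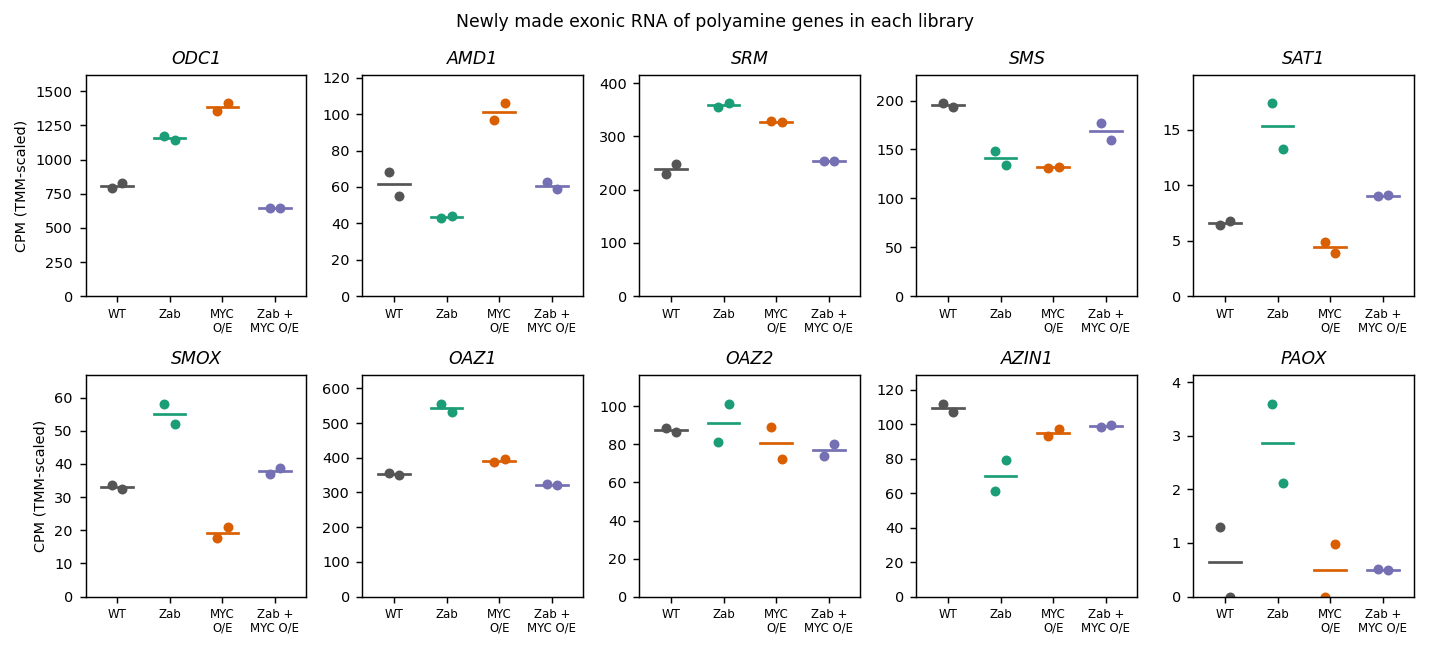
CPM of the 10 genes, of which PAOX was not tested, in each of the 8 libraries by genotype. There is 1 panel per gene and 1 point per library, with a line at the mean of each genotype. ODC1 runs from 645 to 1410 CPM and is highest in both MYC O/E libraries, SMS is highest in WT, and SAT1 stays below 20 CPM throughout.

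The breakdown genes were low. SAT1 (X chromosome, 23801275 to 23804340, plus strand), the rate-limiting enzyme of polyamine breakdown, stood at 6.45 and 6.76 CPM in the WT libraries, 17.4 and 13.3 in Zab, 4.89 and 3.94 in MYC O/E, and 9.02 and 9.13 in Zab + MYC O/E, from 16 to 37 reads a library. As CPM, Zab was highest and MYC O/E lowest, without overlap between genotypes. As deposited values, Zab + MYC O/E was highest on average (7.51, against 6.72 in Zab), Zab overlapped it, and MYC O/E overlapped WT. SAT1 rose in Zab over WT (log2 change 1.09, SE 0.353, adjusted p = 0.0121), which was lost without WT replicate 1 (1.06, adjusted p = 0.0577), without Zab replicate 1 (0.91, adjusted p = 0.0674) and on the deposited scale (0.50, adjusted p = 0.22). MYC O/E was at -0.49 against WT (adjusted p = 0.269), not past the test at this depth. Zab + MYC O/E over MYC O/E was called (0.90, adjusted p = 0.0394), and it was not called with any single library of these genotypes left out (adjusted p = 0.0776 to 0.185), on the deposited scale (0.73, adjusted p = 0.0857), in DESeq2, with no filter, or with averaged pairs.

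SMOX, spermine oxidase (chromosome 20, 4129426 to 4168394, plus strand), stood at 33.5 and 32.4 CPM in the WT libraries, 58.1 and 52.0 in Zab, 17.5 and 20.9 in MYC O/E, and 37.1 and 38.7 in Zab + MYC O/E. The Zab and MYC O/E libraries lay on opposite sides of WT. SMOX fell 1.71-fold in MYC O/E over WT (log2 change -0.75, SE 0.19, adjusted p = 0.00192) and rose 1.67-fold in Zab over WT (0.72, adjusted p = 0.00248), and neither call held on the deposited scale (-0.28 and 0.10, adjusted p = 0.216 and 0.664). MYC O/E against Zab showed the widest gap of this gene (-1.47, adjusted p = 2.04e-07, or -0.38 with adjusted p = 0.0693 on the deposited scale). PAOX (chromosome 10, 135192766 to 135205198, plus strand) had 0 to 6 reads a library, at most 3.596 CPM, and did not pass the filter on low values, so that no difference was detectable at this depth.

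OAZ1 (chromosome 19, 2269485 to 2273487, plus strand), the main antizyme, stood at 357 and 350 CPM in the WT libraries, 556 and 531 in Zab, 388 and 396 in MYC O/E, and 324 and 322 in Zab + MYC O/E. Zab stood far above the other libraries, which kept a narrow order of MYC O/E, WT and Zab + MYC O/E. OAZ1 rose 1.54-fold in Zab over WT (log2 change 0.62, SE 0.0591, adjusted p = 1.59e-09), while the deposited values gave -0.02 (adjusted p = 0.814). In MYC O/E over WT it passed narrowly (0.15, adjusted p = 0.0432), and it did not pass without any single library of WT, MYC O/E or Zab + MYC O/E (adjusted p = 0.0564 to 0.185), with library totals in place of TMM (adjusted p = 0.23), in DESeq2, with no filter, or with averaged pairs. That rise was larger on the deposited scale (0.64, adjusted p = 3.64e-10). Zab + MYC O/E was lower than MYC O/E (-0.28, adjusted p = 0.000321).

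OAZ2 (chromosome 15, 64979773 to 64995480, minus strand), a second antizyme, stood at 88.7 and 86.8 CPM in the WT libraries, 81.5 and 101 in Zab, 89.1 and 72.1 in MYC O/E, and 73.9 and 80.2 in Zab + MYC O/E. Libraries of different genotypes overlapped, and OAZ2 passed in none of the 7 comparisons. Its change was 0.05 in Zab over WT (95% interval -0.22 to 0.33) and -0.13 in MYC O/E over WT (adjusted p = 0.462). On the deposited scale it was called in both, at -0.58 (adjusted p = 0.000539) and 0.36 (adjusted p = 0.0231). In Zab + MYC O/E over Zab it was called lower without Zab replicate 1 (-0.39, adjusted p = 0.027) and higher on the deposited scale (0.67, adjusted p = 7.55e-05), which also called MYC O/E over Zab (0.94, adjusted p = 3.11e-07).

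AZIN1 (chromosome 8, 103838530 to 103876428, minus strand) stood at 112 and 107 CPM in the WT libraries, 61.1 and 79.1 in Zab, 93.0 and 97.2 in MYC O/E, and 98.7 and 99.7 in Zab + MYC O/E. The Zab libraries were the lowest, and those of the other genotypes lay close together. AZIN1 fell in Zab over WT (log2 change -0.65, SE 0.124, adjusted p = 9.5e-05), to 0.64 times WT as CPM and 0.412 times as deposited. In MYC O/E it was at -0.20 (adjusted p = 0.193), and at 0.29 on the deposited scale (adjusted p = 0.0516). Its transcript is a known target of ADAR editing, and exon totals carry no information on editing.

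ODC1, OAZ1 and AZIN1 act on one another as proteins, so their RNA levels were also set side by side per kb, with no test. ODC1 over OAZ1 was 1.09 ± 0.0483 in WT, 1.02 ± 0.0136 in Zab, 1.68 ± 0.0241 in MYC O/E and 0.957 ± 0.00049 in Zab + MYC O/E. ODC1 RNA thus stood out against OAZ1 RNA in MYC O/E, and in Zab their ratio was near that of WT. AZIN1 over OAZ1 was 0.0806 ± 0.00115 in WT, 0.0337 ± 0.00719 in Zab, 0.063 ± 0.00101 in MYC O/E and 0.0799 ± 0.0009 in Zab + MYC O/E, lowest in both Zab libraries. SAT1 over ODC1, breakdown against synthesis, was 0.0188 ± 6.46e-05 in WT, 0.0304 ± 0.00519 in Zab, 0.00738 ± 0.00135 in MYC O/E and 0.0323 ± 0.000396 in Zab + MYC O/E, lowest in both MYC O/E libraries.

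**Figure D2:**
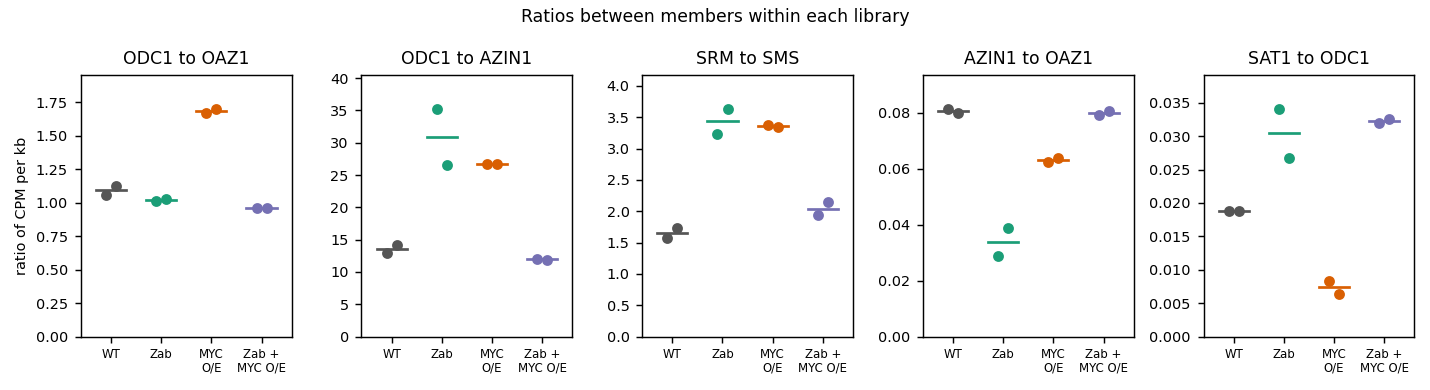
Ratios of CPM per kb between pairs of polyamine genes in each of the 8 libraries, by genotype, 1 point per library. ODC1 over OAZ1 is highest in MYC O/E (mean 1.68), AZIN1 over OAZ1 is lowest in Zab (0.0337), and SRM over SMS is above 3 in Zab and MYC O/E.

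Compared per kb of exon in WT, the order was ODC1 (329 CPM per kb), OAZ1 (302), SRM (191), SMS (116), OAZ2 (45.6), AZIN1 (24.3), AMD1 (18.1), SMOX (14.8) and SAT1 (6.19). The libraries of neighbours in this order did not overlap in WT. In Zab, ODC1 (471 ± 9.11) and OAZ1 (463 ± 15.1) did overlap, and SAT1 (14.4) overlapped both AZIN1 (15.5) and AMD1 (13.0). SMOX (24.7) stood above AZIN1 and AMD1 in Zab, without overlap. AMD1 (29.8) stood above AZIN1 (21.1) in MYC O/E, and in Zab + MYC O/E, OAZ1 (275) stood above ODC1 (263), without overlap in either case. ODC1 was the gene with rank 164 of the 11985 tested in WT by this measure.

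By comparison, 9 of the 10 genes passed the filter and were tested. In MYC O/E over WT, 4 of 9 rose (ODC1, AMD1, SRM and OAZ1) and 2 fell (SMS and SMOX), where 44.0% of all tested genes were called, 22.2% rising and 21.8% falling. Their median log2 change was -0.13, against -0.0052 over all tested genes, and on the deposited scale 5 rose (those 4 and OAZ2) and 0 fell in limma, where 5838 of the 11985 tested genes rose and 1149 fell. In Zab over WT, 5 of 9 rose (ODC1, SRM, SAT1, SMOX and OAZ1) and 3 fell (AMD1, SMS and AZIN1), against 23.8% and 25.9% of all tested genes, 49.7% together. On the deposited scale 0 rose in limma and 5 fell, where 575 of all tested genes rose and 6882 fell and the median gene itself was at -0.63. In Zab + MYC O/E over MYC O/E, 3 rose and 4 fell (21.8% and 22.7% of all tested genes, 44.5% together). With so many genes called, these counts say nothing particular about the 9. These comparisons share libraries and are not independent of each other.

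Zab + MYC O/E over WT called ODC1 alone, 1 of 9, where 0.601% of all tested genes were called. The other 8 genes lay between -0.21 (SMS, 0.06 as deposited) and 0.41 (SAT1), and on the deposited scale SRM was called (0.37, adjusted p = 0.00164) in place of ODC1. In Zab + MYC O/E over Zab, 3 of 9 rose and 4 fell, against 25.8% and 24.1% of all tested genes, 49.9% together. ODC1 (-0.84, adjusted p = 1.96e-15), OAZ1 (-0.75, adjusted p = 3.06e-11), SRM (-0.50, adjusted p = 8.82e-07) and SMOX (-0.53, adjusted p = 0.0232) were lower, and all 4 have the opposite sign on the deposited scale (0.08, 0.16, 0.42 and 0.37). AZIN1 (0.51, adjusted p = 0.00136), AMD1 and SMS (0.25, adjusted p = 0.0251) were higher. The SMOX call was lost without Zab replicate 1 (-0.44, adjusted p = 0.0997) or either Zab + MYC O/E library (-0.49 and -0.55, adjusted p = 0.122 and 0.0828), the SMS call without Zab replicate 2 (0.19, adjusted p = 0.131) or Zab + MYC O/E replicate 1 (0.18, adjusted p = 0.252), and AZIN1 stood at 0.33 without Zab replicate 1 (adjusted p = 0.0333).

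MYC O/E over Zab sets the 2 genotypes with low ADAR RNA against each other. In it 3 of 9 genes rose and 3 fell, against 29.6% and 26.7% of all tested genes, 56.3% together. AMD1 (1.197, adjusted p = 6.08e-08), AZIN1 (0.45, adjusted p = 0.00339) and ODC1 (0.26, adjusted p = 8.98e-06) were higher in MYC O/E, and SAT1 (-1.59, adjusted p = 0.000412, or -0.58 with adjusted p = 0.131 on the deposited scale), SMOX (-1.47, given above) and OAZ1 (-0.47, adjusted p = 1.49e-07) were lower, OAZ1 turning to 0.66 on the deposited scale. The AZIN1 call was lost without Zab replicate 1 (0.27, adjusted p = 0.0712). The synthesis gene AMD1 and the breakdown genes SAT1 and SMOX thus lay on opposite sides, and SRM and SMS were not called (-0.13 and -0.10, adjusted p = 0.11 and 0.375). On the deposited scale SRM and SMS were both called higher in MYC O/E (1.0001 and 1.03, adjusted p = 2.56e-13 and 3.82e-11).

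**Figure D3:**
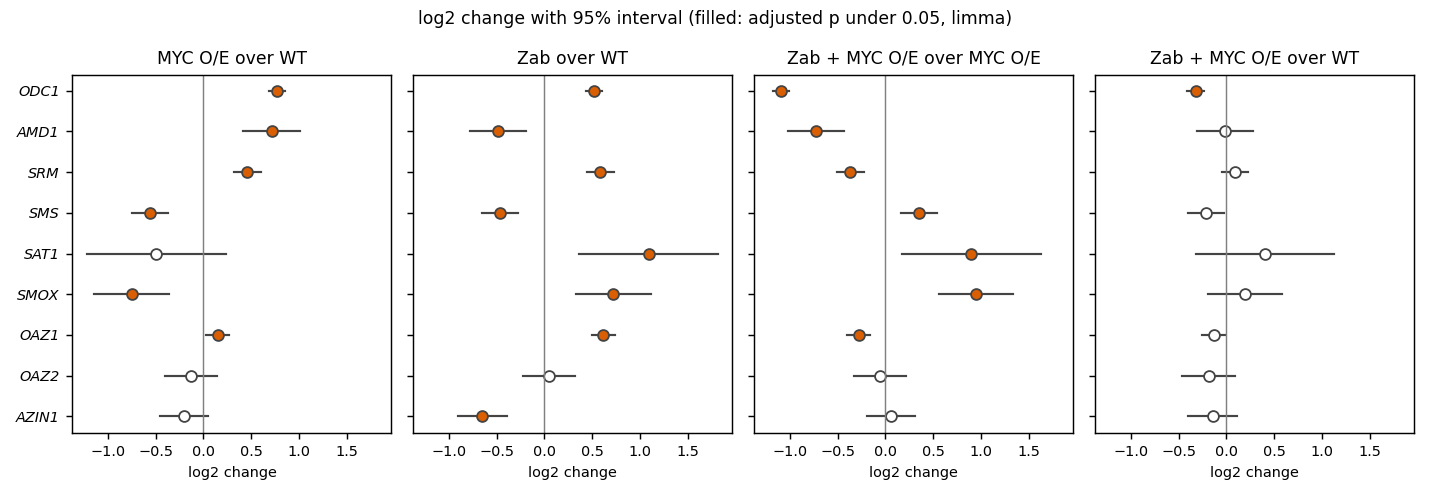
log2 change of each of the 9 tested genes in the comparisons, on the log2(CPM + 1) scale, with 95% intervals from limma and filled points for adjusted p under 0.05. ODC1 stands at 0.77 in MYC O/E over WT and -1.09 in Zab + MYC O/E over MYC O/E, while OAZ2 is called in none; the deposited scale turns the Zab over WT signs of ODC1, SRM, OAZ1 and OAZ2.

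The interaction asks whether the Zab label goes with a different change in MYC O/E than in WT, as the first difference minus the second. It was called for 5 of 9 genes, 2 upward and 3 downward, where 28.2% and 24.8% of all tested genes were called, 53.0% together. ODC1 differed most (-1.61, SE 0.0593, adjusted p = 1.67e-18): it was higher with Zab in the WT background and lower with Zab in the MYC O/E background. SRM (-0.95, SE 0.0968, adjusted p = 3.81e-09) and OAZ1 (-0.90, SE 0.0836, adjusted p = 7.49e-10) had the same pattern. SMS (0.82, SE 0.131, adjusted p = 7.49e-06) and AZIN1 (0.71, SE 0.176, adjusted p = 0.00134) had positive values. AMD1, which was lower with Zab in both backgrounds, stood at -0.24 (adjusted p = 0.323, or 0.16 on the deposited scale), and SMOX, not called at 0.23, was called on the deposited scale (0.65, adjusted p = 0.0408). The interaction uses the Zab + MYC O/E libraries, whose MYC level matched WT rather than the label.

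**Figure D4:**
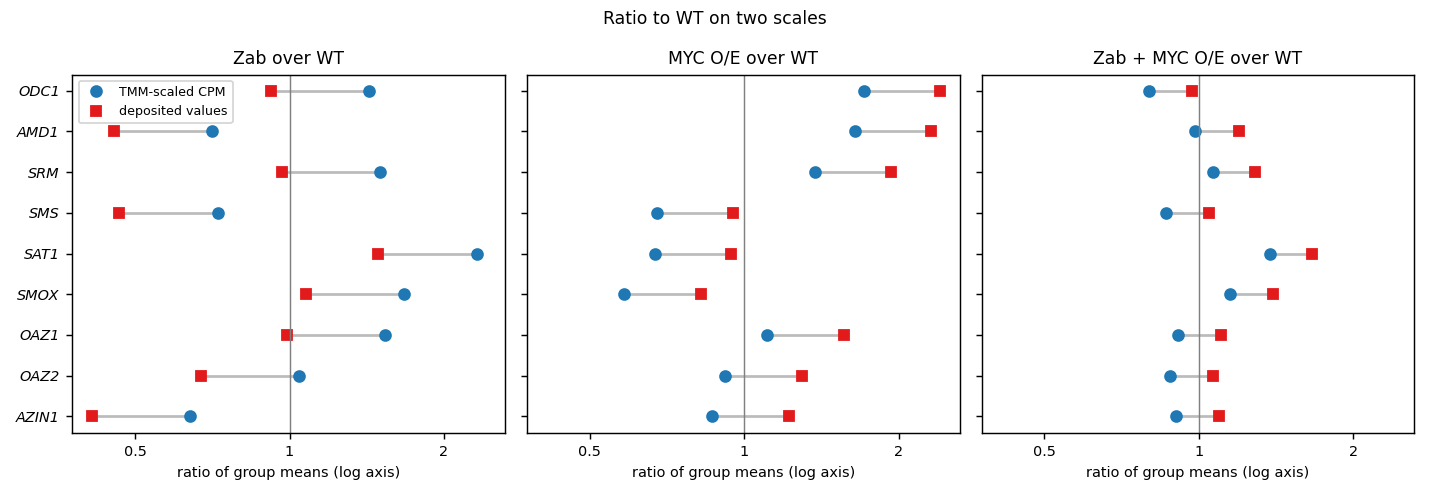
Mean of each tested gene over its WT mean in the other 3 genotypes, from CPM and from deposited values, on a log2 axis. ODC1 in Zab is at 1.43 times WT by CPM and 0.92 times by deposited values, and in MYC O/E at 1.71 and 2.41 times, so that the sign in Zab depends on the scale and the sign in MYC O/E does not.

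The change in Zab over WT also moved with the genomic span of the genes. Over all tested genes its median was 0.37 for the 1172 genes of at most 5 kb, 0.16 for 3460 genes of 5 to 20 kb, -0.08 for 3235 genes of 20 to 50 kb, and -0.29 for 4118 longer genes. SAT1 (3.07 kb), OAZ1 (4.00 kb), SRM (5.43 kb) and ODC1 (8.36 kb) were the shortest of the 10, and all 4 rose on the CPM scale, while AMD1 (20.9 kb), AZIN1 (37.9 kb) and SMS (54.1 kb) fell. SMOX (39.0 kb) rose, 0.80 above the median of genes of its span, of which 22.7% were called higher and 27.7% lower. In MYC O/E over WT the 4 medians lay between -0.07 and 0.03. In the interaction described above, the medians ran from -0.37 in the shortest class to 0.44 in the longest. In Zab + MYC O/E over Zab they ran from -0.35 to 0.30. ODC1, SRM and OAZ1, with negative interactions, are short, and AZIN1 and SMS, with positive ones, are longer. SMS lay 0.37 above its class median in the interaction and 0.05 below it in Zab + MYC O/E over Zab. The part of gene span in these values was not tested. Reads per 100 tags that fell in coding exons were also fewer in Zab (6.55 ± 0.154) than in WT (13.1 ± 0.0029), MYC O/E (13.7 ± 0.139) or Zab + MYC O/E (13.5 ± 0.0423), and their part was not tested.

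**Figure D5:**
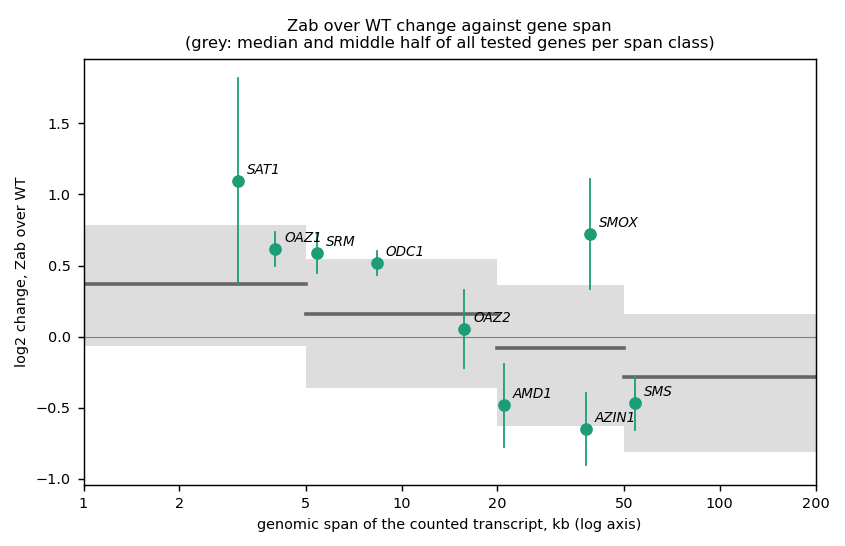
log2 change in Zab over WT of the 9 tested genes against genomic span in kb on a log axis, with the median and interquartile range of all tested genes in 4 span classes. The medians fall from 0.37 to -0.29 with span, and SMOX lies 0.80 above its class. The last class has no upper limit.

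Of 24 further genes of polyamine supply, salvage, use and transport, 19 were tested. In MYC O/E over WT 7 rose and 3 fell (median 0.39), where 22.2% and 21.8% of all tested genes did. On the deposited scale 15 rose and 2 fell, where 5838 of the 11985 tested genes rose and 1149 fell. In Zab over WT 7 rose and 5 fell (median 0.05), against 23.8% and 25.9% of all tested genes. On the deposited scale 0 rose in limma and 9 fell, where 575 of all tested genes rose and 6882 fell. EIF5A, the translation factor that carries hypusine, a residue made from spermidine, averaged 832 ± 7.29 CPM across WT, 1215 ± 71.1 across Zab, 1178 ± 25 in MYC O/E and 875 ± 9.72 in Zab + MYC O/E. It rose in MYC O/E (0.50) and in Zab (0.54, but -0.09 on the deposited scale), so its order was near that of SRM. DHPS, which starts hypusine formation, rose in Zab (0.58, but -0.04 on the deposited scale).

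ENOPH1, of the pathway that recycles the methylthioadenosine left by SRM and SMS, showed the largest rise of the 19 tested genes in MYC O/E over WT, from 26.3 ± 3.01 to 89.3 ± 3.18 CPM (1.73, SE 0.19, adjusted p = 2.7e-08). It also rose in Zab over WT (0.74, adjusted p = 0.00223, or 0.12 with adjusted p = 0.595 on the deposited scale). In the same pathway APIP (-1.35) and MTAP (-0.33, adjusted p = 0.035) fell in Zab over WT. Among transport genes, SLC3A2 rose in MYC O/E (0.66) and in Zab (0.52, but -0.12 on the deposited scale), and ATP13A3, a polyamine transporter, rose in MYC O/E (0.39) and fell in Zab (-0.85). Its relative ATP13A2, named after its values were seen, went the other way, at -0.70 in MYC O/E (adjusted p = 2.05e-05) and 0.80 in Zab (adjusted p = 2.5e-06), with neither called on the deposited scale (-0.21 and 0.17, adjusted p = 0.143 and 0.23). Among genes of precursor supply, ARG2, an arginase that makes ornithine, fell in both MYC O/E (-1.30) and Zab (-0.83). OAT, which consumes ornithine, fell in Zab (-0.83), and MAT2B, a subunit of the enzyme that makes S-adenosylmethionine, was at 0.39 in MYC O/E without passing the test. MAT2A, of the same enzyme and named after its values were seen, rose in MYC O/E on the CPM scale (0.63, adjusted p = 2.89e-07). On that scale it also rose in Zab (0.35, adjusted p = 0.00073). On the deposited scale this turned: all 4 tested genes of precursor supply, MAT2A among them, were called lower in Zab. There 6882 of the 11985 tested genes were called lower. Of the paralogs, SAT2 fell from 18.1 ± 0.429 to 4.25 ± 1.64 CPM in MYC O/E (-1.90), and AZIN2, at 4.47 ± 2.22 CPM in WT, was at 0.71 without passing.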

How the data were processed

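Per the submitters' processing notes, STAR, bedtools 2.29.2, Trim Galore 0.6.6 and SAMtools 1.11 were used, with builds hg19 and dm6, in roles and an order not given in the sources used here. Per the file headers, HOMER's analyzeRepeats program counted tags over exons on the opposite strand, keeping 1 transcript per gene symbol. The deposited values are a signal, not whole counts: each is a whole multiple of a step of 0.204 to 0.259 per library, and 99.95% to 100% gave whole reads within 0.02. Of values of 1 to 20 reads, 77.2% to 82.7% were even numbers. Libraries kept different transcripts for AMD1, SMOX, OAZ2 and PAOX, and one common transcript for the other 6 genes. ODC1, AMD1 and OAZ1 have processed pseudogenes, so reads shared with these copies make their levels uncertain.

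TMM scaling (edgeR 4.0.16) turned the deposited signal into CPM. Genes were kept by filterByExpr at a minimum of 10 recovered reads, and log2(CPM + 1) of all 8 libraries entered 1 limma 3.58.1 fit (R 4.3.3) with a term per genotype, no block and 4 residual degrees of freedom. Changes are on that log2 scale and understate those of low genes; values given as times or -fold divide mean CPM. With 2 libraries a side, an exact two-sided permutation test cannot go below 0.333. On data simulated for MYC O/E over WT (11762 genes), 46% of 1.5-fold and 92% of 2-fold changes were recovered, with 1.43% of calls false. The simulation changed 100 genes by each fold, as many up as down, whereas 44.0% of tested genes were called in the real comparison. Such balanced data hold no scaling problem, so the false share cannot be carried over to the real libraries. There were 7 comparisons and 19 alternatives: other scalings, pseudocounts and filters, edgeR's quasi-likelihood test and DESeq2 1.42.0 on recovered reads, averaged pairs, a replicate block and each library left out.

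The members and lists were chosen with earlier results of these data known. Genes named in the text are the 10 members, MYC and ADAR, the genes of each further list with the smallest p in a comparison, and the 5 genes most like ODC1. ATP13A2 and MAT2A were added after their values were seen. Markers were named to check the cell type. Replicate numbers did not pair libraries: deviations of same-numbered libraries correlated at -0.0218 to 0.00985 over 7765 genes.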

Additional observations from a re-analysis of the deposited data

Results flagged for a closer look

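A difference between genotypes in the change that goes with the Zab label, tested as the interaction in limma, was found for 5 of the 9 tested genes. It was called for 53.0% of all tested genes, so this count says nothing particular about the 9. The interaction uses the Zab + MYC O/E libraries, whose MYC level matched WT rather than the label. ODC1 had -1.61 (adjusted p = 1.67e-18), SRM -0.95 (adjusted p = 3.81e-09) and OAZ1 -0.90 (adjusted p = 7.49e-10), each higher with Zab in the WT background and lower with Zab in the MYC O/E background. SMS had 0.82 (adjusted p = 7.49e-06) and AZIN1 0.71 (adjusted p = 0.00134), both lower with Zab in the WT background. Over all tested genes the median interaction ran from -0.37 for genes of at most 5 kb to 0.44 for those over 50 kb. The part of gene span in these 5 values was not tested. On the deposited scale the Zab over WT changes of ODC1, SRM and OAZ1 were -0.12, -0.05 and -0.02, so there the rise in the WT background was not seen. No group held more than 2 libraries, so a single library far from its group could not be looked for.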

How the results depend on the processing

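Of 63 values (9 genes in 7 comparisons), 40 were called, and all 40 kept direction and call with edgeR, median-of-ratios scaling, both other pseudocounts and the replicate block, which gave 5285 genes called in MYC O/E over WT against 5276 without it and changed no call of a member. With DESeq2 4 calls were lost, with averaged pairs 7, with library totals 2, with no filter 2, and with genes of one common transcript 1 of 30. On the deposited scale 9 called values were lost and 8 reversed, and that scale also shifts the median gene. There the median gene stood at 0.47 in MYC O/E over WT, -0.63 in Zab over WT and -0.19 in Zab + MYC O/E over MYC O/E. It stood at 0.89 in Zab + MYC O/E over Zab, 0.27 in Zab + MYC O/E over WT, 1.1125 in MYC O/E over Zab and 0.49 in the interaction. In the full fit it stood at -0.0052, -0.048, 0.024, 0.034, -0.00065, 0.049 and 0.11 in that order. With library totals the median gene stood at -0.06, -0.24, 0.12, 0.26, 0.04, 0.19 and 0.39 in the same order. Where a cause is not given by such a shift or by fewer genes or libraries, the cause was not tested.

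Values that turned sign on the deposited scale were, in MYC O/E over WT, OAZ2 0.36 and AZIN1 0.29; in Zab over WT, ODC1 -0.12, SRM -0.048, OAZ1 -0.018 and OAZ2 -0.58; in Zab + MYC O/E over MYC O/E, AZIN1 -0.16. In Zab + MYC O/E over Zab they were ODC1 0.076, SRM 0.42, SAT1 0.15, SMOX 0.37, OAZ1 0.16 and OAZ2 0.67, and in Zab + MYC O/E over WT, AMD1 0.26, SMS 0.065, OAZ1 0.15, OAZ2 0.089 and AZIN1 0.13. In MYC O/E over Zab they were SRM 1.0001, SMS 1.03, OAZ1 0.66 and OAZ2 0.94, and in the interaction AMD1 0.16, SAT1 0.23 and OAZ2 0.30. With library totals the sign turned for OAZ2 in Zab over WT (-0.15), Zab + MYC O/E over MYC O/E (0.037), Zab + MYC O/E over Zab (0.0025) and the interaction (0.19), for AMD1 in Zab + MYC O/E over WT (0.023) and the interaction (0.051), for SAT1 in the interaction (0.083), and for SRM (0.017) and SMS (0.047) in MYC O/E over Zab. Leaving out 1 library gave ranges that cross 0 for OAZ2 in MYC O/E over WT (-0.28 to 0.026), Zab over WT (-0.11 to 0.20), Zab + MYC O/E over MYC O/E (-0.21 to 0.091) and the interaction (-0.26 to 0.049), and for AMD1 in Zab + MYC O/E over WT (-0.17 to 0.14); none of these was called.

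Counts of genes called were smaller with averaged pairs, at 3467 in MYC O/E over WT, 3986 in Zab + MYC O/E over Zab and 0 in Zab + MYC O/E over WT in limma, where the full fit had 927 genes at an unadjusted p under 0.05, edgeR called 146 and DESeq2 126. That last comparison called 72 genes in the full fit, 17 with no filter, 1752 on the deposited scale and 22 to 155 with 1 library left out. Testing only the 6415 genes of one common transcript called 3018 in MYC O/E over WT, 3323 in Zab over WT, 3030 in Zab + MYC O/E over MYC O/E, 3275 in Zab + MYC O/E over Zab, 3756 in MYC O/E over Zab and 3627 in the interaction. Genes called higher and lower on the deposited scale were 5838 and 1149 in MYC O/E over WT (2665 and 2611 in the full fit), 575 and 6882 in Zab over WT (2852 and 3104), 1853 and 4006 in Zab + MYC O/E over MYC O/E (2615 and 2715), 8807 and 237 of 9044 in Zab + MYC O/E over Zab (3091 and 2892), 1749 and 3 in Zab + MYC O/E over WT (16 and 56), 8999 and 599 in MYC O/E over Zab (3547 and 3202), and 5044 and 1837 in the interaction (3383 and 2973). With library totals they were 1888 and 4149 in Zab over WT, 4285 and 1742 in Zab + MYC O/E over Zab, 19 and 32 in Zab + MYC O/E over WT, and 4590 and 2134 in the interaction. Depth limits SAT1 (16 to 37 reads a library) and PAOX (0 to 6).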

Other observations

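The 5 genes whose log2 CPM over the 8 libraries, centred on their mean, lay closest to ODC1 among 7765 genes of at least 20 CPM on average were FBXO31, NOP14, SCO2, SMARCD1 and UBQLN4. Their root mean square differences from ODC1 were 0.0709, 0.0725, 0.0881, 0.0907 and 0.0970 in log2 units, a description over 8 libraries that share scaling, with no test. FBXO31, an F-box protein, had mean CPM of 49.1 in WT, 72.2 in Zab, 85.8 in MYC O/E and 41.1 in Zab + MYC O/E. NOP14, a factor in making the small ribosomal subunit, had 120, 176, 197 and 104 in the same order. Of the polyamine genes themselves, SRM came nearest to ODC1, at rank 765 with a difference of 0.26, and OAZ1 was at rank 1397 with 0.32.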
